A study of Caenorhabditis elegans with 9 samples.

Results

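A set of 41 genes of DNA replication and the cell cycle was followed in RNA from whole Caenorhabditis elegans in which RPOA-2 had or had not been depleted. RPOA-2 is the second-largest subunit of RNA polymerase I, the enzyme that transcribes ribosomal RNA genes. Of the 41 genes, 30 were taken by name, and the others are mcm-2 to mcm-7 and orc-1 to orc-5, taken by the pattern of their symbols. All 41 were among the 13246 genes listed in at least 1 of the 9 libraries, and 33 of them passed the filter on low counts and were tested. The rule itself uses no measured value.

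The libraries fall into 4 groups, and all animals shared the allele degron::GFP::rpoa-2. A degron is a tag through which the plant F-box protein TIR1 sends its carrier to the proteasome once the auxin IAA binds. The controls carried neither TIR1 nor IAA and were sampled at 18 h (n = 2) and at 24 h (n = 2), so the libraries at 18 h are controls only. In the hypodermal depletion (n = 3) TIR1 was driven by the col-10 promoter, a promoter of a cuticle collagen gene used to express transgenes in the hypodermis. In the global depletion (n = 2) TIR1 was driven by the eft-3 promoter, which is used for expression in most somatic tissues. Both depleted groups were kept on 1 mM IAA and sampled at 24 h. Synchronized eggs were placed on plates at 16 °C, and the titles carry the word embryo, but the stage at harvest is not given. Because TIR1 and IAA were present in both depleted groups and absent from all controls, their own effects cannot be told apart from those of depletion. Whether the replicates are separate cultures is not stated, so the p-values measure only the spread between these libraries, which may be technical.

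A cell licenses its replication origins in G1, when the origin recognition complex (ORC), CDC-6 and CDT-1 load the ring-shaped MCM helicase onto DNA. Kinases then fire the origins at the start of S phase, and cyclin-dependent kinases, Polo and Aurora kinases and the kinetochore carry the cell through mitosis. In many organisms the genes for these proteins are transcribed in dividing cells and repressed in resting ones by E2F with Rb-family proteins. In the worm most embryonic cells have stopped dividing by hatching, and the blast cells of the first larva resume division only once food is available. The level of these RNAs in a whole animal is therefore often read as a sign of how much division is under way, although it measures RNA and not division itself. In whole-animal RNA, a smaller number of dividing cells and less of an RNA per dividing cell cannot be told apart.

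The depth differed between the groups. Library totals ran from 166455 to 2134185 counts, and the 18 h controls were the shallowest, at 197970 and 166455. The table holds no count under 3, so an unlisted gene had 0, 1 or 2 counts. After scaling, 3 counts stood for 14.8 and 18.1 CPM (library counts per 1e6, with TMM factors) in the 18 h controls, but for 1.44 to 9.55 CPM in the other libraries. The median count of the 41 genes was 3 in each 18 h control, 9 and 16 in the 24 h controls, and between 16 and 40 in the depleted libraries. Of the 41, 16 were listed in all 9 libraries, and 14 were listed in neither 18 h control. A low level at 18 h is therefore often known only as an upper limit.

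The rpoa-2 RNA was read first, because it is the targeted gene. The degron acts on the protein, so a fall of the RNA is not required by the method. It stood at 187 and 272 CPM at 18 h, at 156 and 260 CPM in the 24 h controls, at 355 and 369 CPM in global depletion, and at 290, 279 and 238 CPM in hypodermal depletion. Both global libraries lay above every other library. The log2 fold change of global depletion over the 24 h controls was 0.77 (SE 0.25, adjusted p = 0.042 in edgeR's quasi-likelihood test), and this call was lost in 8 of 18 alternative settings. Without the first 24 h control the adjusted p was 0.445, and without either global library it was 0.173 or 0.205; leaving out the first 18 h control or the second hypodermal library gave 0.0619 and 0.055.

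Together the 41 genes stood higher in the 24 h controls than in the 18 h controls, and both depletions lay between, closer to the 24 h controls. Their summed level came to 833 and 913 CPM at 18 h and at 1852 and 1688 CPM in the 24 h controls. It was 1507 and 1626 CPM in global depletion and at 1382, 1570 and 1568 CPM in hypodermal depletion. Both 18 h controls lay below every 24 h library, and both 24 h controls lay above every depleted library. This second separation depends on the scaling: with total counts only, the second global library lay between the 24 h controls. The mean sum of the 24 h controls was 2.03 times that of the 18 h controls. Entering 2 counts for each unlisted gene raised the 18 h sums to 1030 and 1143 CPM and left a ratio of 1.65. The global sum was 0.885 of the 24 h control sum, and 0.952 when only total counts were used for scaling. The hypodermal sum was 0.851 of the 24 h control sum, and 0.858 with total counts. These sums carry no test.

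**Figure D1:**
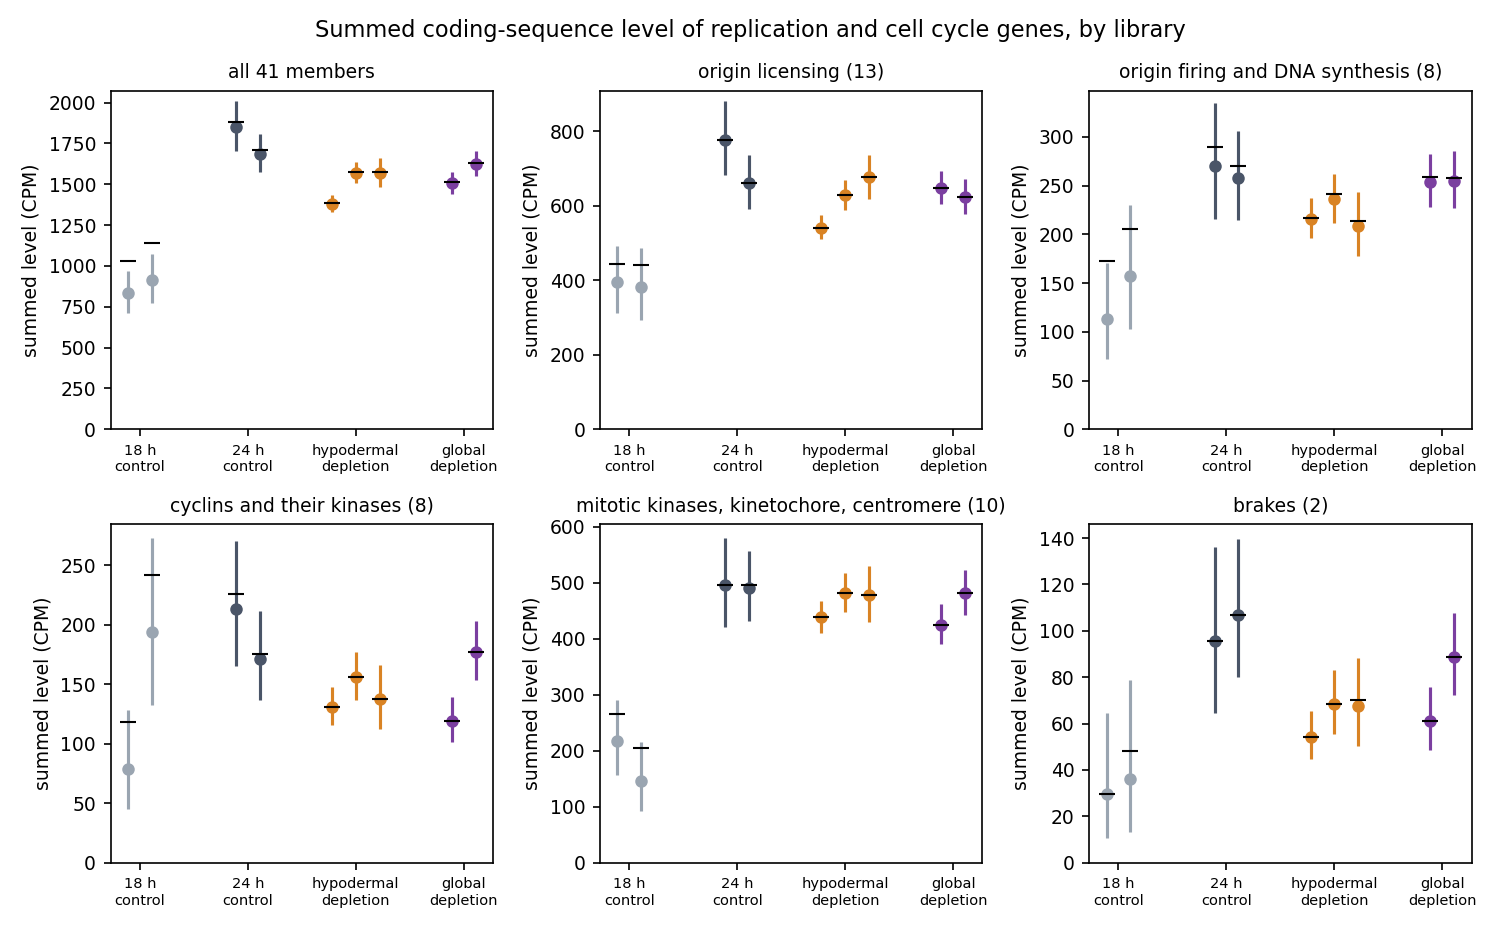
Summed level in CPM (y axis, from 0) of all 41 genes and of 5 role groups in each library (x axis, 4 groups), with the number of genes in brackets. Points are single libraries, vertical lines are exact Poisson 95% intervals for counting error, and black dashes show the sum with 2 counts for each unlisted gene; the 18 h controls lie at 833 and 913 CPM for all 41 genes and the other libraries between 1382 and 1852 CPM.

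Gene by gene, 3 of the 33 tested genes were higher at 24 h than at 18 h in the controls and 0 were lower. Of all 8026 genes tested in that comparison, 3.07% were called, 0.934% higher and 2.13% lower. Among the genes called, hcp-2 and nasp-1 were unlisted in both 18 h controls, so their calls rest on the value entered there. Estimates lay above 0 for 30 of the 33, with a median log2 fold change of 0.69, against 0.01 over all genes tested. Of the 30 genes not called, 10 had an estimate that changed sign in at least 1 alternative setting. Without the filter, where 14 genes rest on the value entered for unlisted counts at 18 h, the median over all 41 was 1.07, against 0.11 over all genes. The filter could favour genes that are high in one group, so these medians are given as a description.

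In global depletion against the 24 h controls, 0 of the 33 genes were called, and 0 had an unadjusted p below 0.05 in edgeR. DESeq2 called 0 as well. In this comparison 8.45% of all genes tested were called, 3.44% higher and 5.01% lower. The share of all genes with an unadjusted p below 0.05 is not given here. The median log2 fold change of the 33 was -0.17, against 0.01 over all genes. For 7 genes (hcp-1, mcm-2, mcm-3, mcm-4, mcm-6, rnr-1 and rnr-2) the whole 95% interval lay within a 2-fold change in either direction. A 2-fold rise lay outside the interval of 23 of the 33 genes and a 2-fold fall outside that of 10, so for most of them a halving was not excluded at this depth.

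In hypodermal depletion against the 24 h controls, 1 of the 33 genes was called, cyb-3, which was lower. Of all genes tested, 5.05% were called, 3.39% lower and 1.66% higher. The median log2 fold change of the 33 was -0.25, against 0.03 over all genes. The interval lay within a 2-fold change for 8 genes (bub-1, hcp-1, mcm-2, mcm-3, mcm-4, mcm-6, mcm-7 and rnr-1). Hypodermal and global depletion, set directly against each other, differed in 0 of the 33 genes by edgeR and by DESeq2. In that comparison edgeR called 4.42% of all genes tested, 2.99% higher and 1.43% lower in hypodermal depletion. Of the 33, 1 had an unadjusted p below 0.05 in edgeR, and the share of all genes at that threshold is not given here. There the intervals of 16 genes lay within a 2-fold change.

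**Figure D2:**
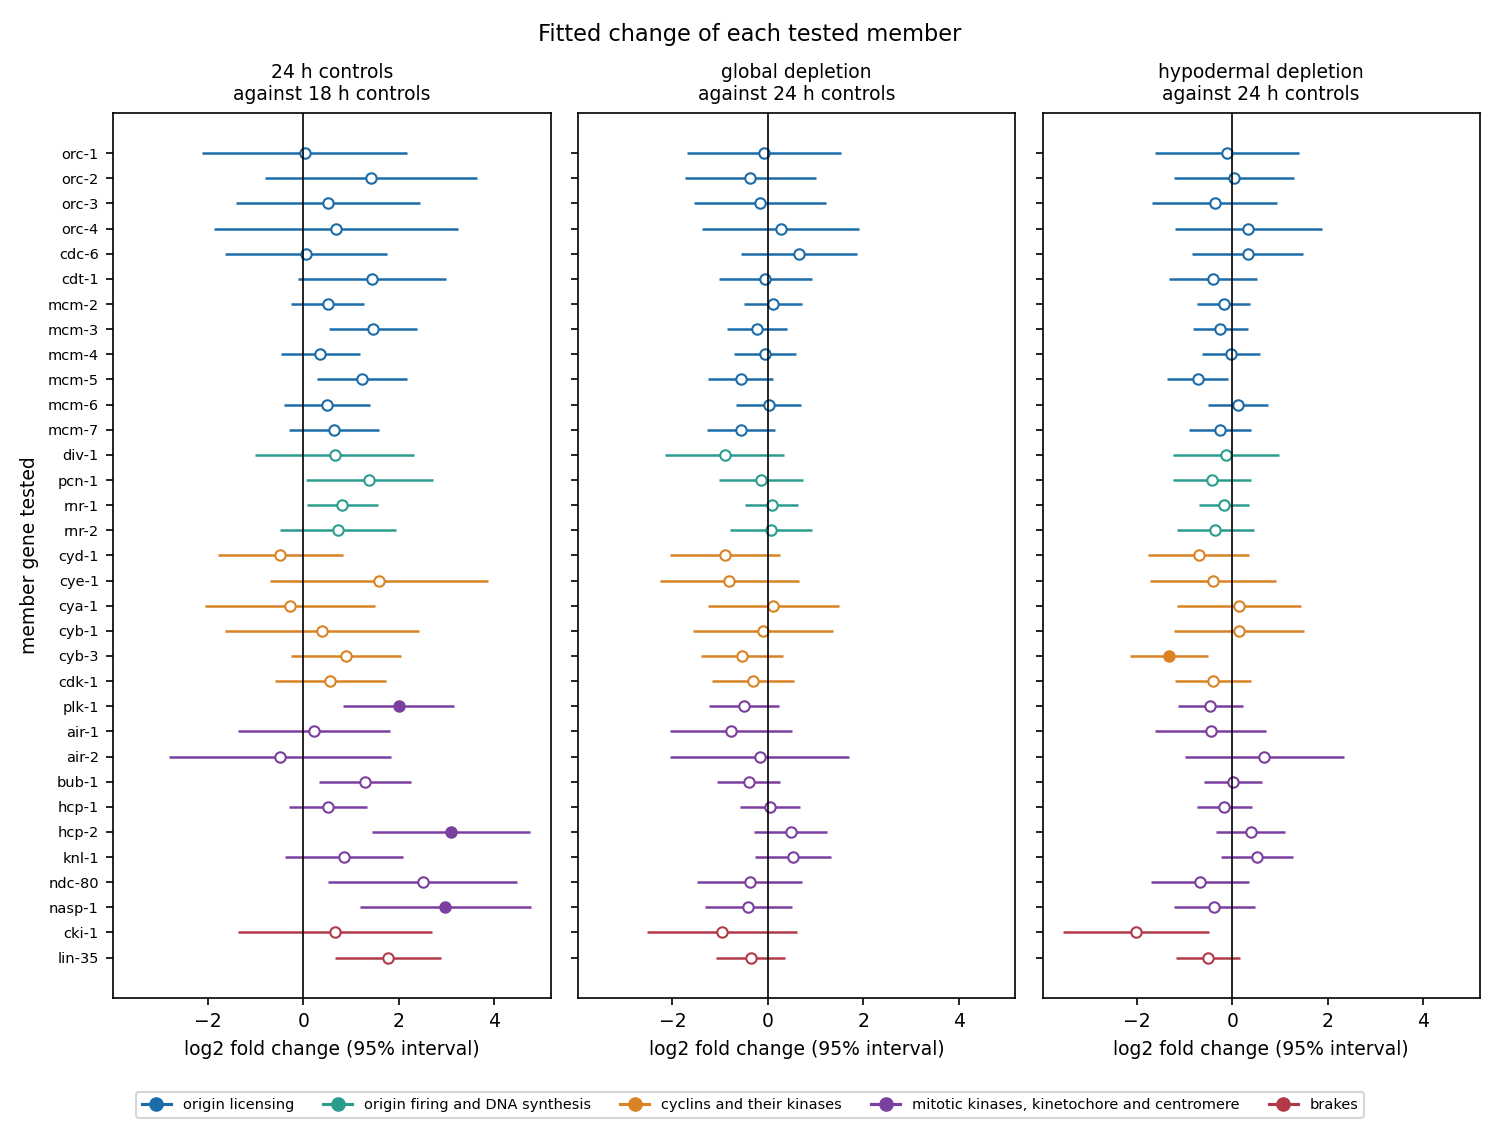
Fitted log2 fold change (x axis) with its 95% interval for each of the 33 tested genes (y axis), coloured by role, in 3 comparisons. Filled points passed an adjusted p of 0.05: hcp-2, plk-1 and nasp-1 at 24 h against 18 h, 0 genes in global depletion and cyb-3 in hypodermal depletion. Estimates against 18 h for genes unlisted there depend on the value entered for unlisted counts.

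Origin licensing is the largest role group, with 13 genes. Their summed level came to 394 and 381 CPM at 18 h, to 777 and 661 CPM in the 24 h controls, to 648 and 624 CPM in global depletion, and to 542, 628 and 676 CPM in hypodermal depletion. The 24 h controls held 1.85 times the 18 h level, and 1.62 times with 2 counts for each unlisted gene. Of the 12 tested, 0 were called between the control times, where 3.07% of all genes tested were called. Estimates lay above 0 for all 12, though those of cdc-6, orc-1, orc-3 and orc-4 changed sign in at least 1 alternative setting. In edgeR 2 had an unadjusted p below 0.05, and the share of all genes at that threshold is not given here. Against the 24 h controls 0 of 12 were called in either depletion, where 8.45% of all genes tested were called in global and 5.05% in hypodermal depletion. With 12 genes, 0 calls do not set this group apart.

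The MCM genes encode the 6 subunits of the replicative helicase ring, and each of the 6 was listed in every library. The gene mcm-2 (chromosome II, 12001510 to 12006625, WBcel235) stood at 104 and 60.5 CPM at 18 h and at 124 and 115 CPM in the 24 h controls. It stood at 127 and 130 CPM in global depletion and at 80.3, 110 and 128 CPM in hypodermal depletion. One hypodermal library lay inside the range of the 18 h controls, and the other libraries at 24 h lay above it. The log2 fold change of mcm-2 was 0.51 (SE 0.38, adjusted p = 0.53) between the control times. In global depletion against the 24 h controls it was 0.11 (95% interval -0.49 to 0.71), and in hypodermal depletion -0.19 (-0.75 to 0.37).

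The subunit gene mcm-3 (chromosome V, 15056719 to 15059599) had the largest estimate of the MCM genes between the control times. It stood at 19.7 and 66.5 CPM at 18 h and at 130 and 100.7 CPM in the 24 h controls. It stood at 106 and 90.4 CPM in global depletion and at 88.0, 103 and 97.2 CPM in hypodermal depletion. All 7 libraries at 24 h lay above both at 18 h, and the 18 h libraries differed from each other more than any at 24 h. The log2 fold change against 18 h was 1.47 (SE 0.46) in the 24 h controls, at an adjusted p of 0.0624 that missed the threshold. It was 1.25 (SE 0.44, adjusted p = 0.0464) in global depletion and 1.22 (SE 0.42, adjusted p = 0.0477) in hypodermal depletion. The call was lost in 10 of 18 alternative settings in global and in 11 of 18 in hypodermal depletion. With DESeq2 the adjusted p was 0.0908 and 0.107. These comparisons share the same 18 h libraries, and without the first of them the adjusted p rose to 0.521 and 0.558. The first call was also lost without either global library or the second or the third hypodermal library (0.0531 to 0.147), and the second without the first global library or any 1 hypodermal library (0.0547 to 0.114).

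None of the remaining MCM genes was called in any comparison. For mcm-4, mcm-5, mcm-6 and mcm-7 the mean levels in the 18 h controls were 67.2 ± 9.52, 43.6 ± 36.0, 54.9 ± 7.91 and 55.5 ± 15.7 CPM (SD, n = 2). In the 24 h controls they were 88.8 ± 22.99, 107 ± 20.2, 78.9 ± 23.4 and 87.9 ± 33.2 CPM (SD, n = 2). The gene mcm-5 stood at 92.3 and 121 CPM in the 24 h controls, at 72.4 and 73.1 CPM in global depletion and at 65.4, 50.2 and 82.9 CPM in hypodermal depletion. Its depleted libraries all lay below both 24 h controls, yet its log2 fold change of -0.73 in hypodermal depletion had an adjusted p of 0.202.

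Per kilobase of coding sequence the 6 MCM genes stood close to each other. In the 24 h controls they ran from 32.5 CPM per kb for mcm-6 to 47.5 CPM per kb for mcm-3, a ratio of 1.46. The ratio of the highest to the lowest subunit was 1.75 in the 18 h controls, 1.38 in hypodermal depletion and 1.84 in global depletion. The mean over the 6 was 23.8 CPM per kb at 18 h, 41.3 in the 24 h controls, 35.5 in global depletion and 35.2 in hypodermal depletion. All of the 6 but mcm-5 overlap a coding gene on the opposite strand. Whether strand was used in counting is not given in the sources used here, so reads of the partners cannot be told apart.

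**Figure D3:**
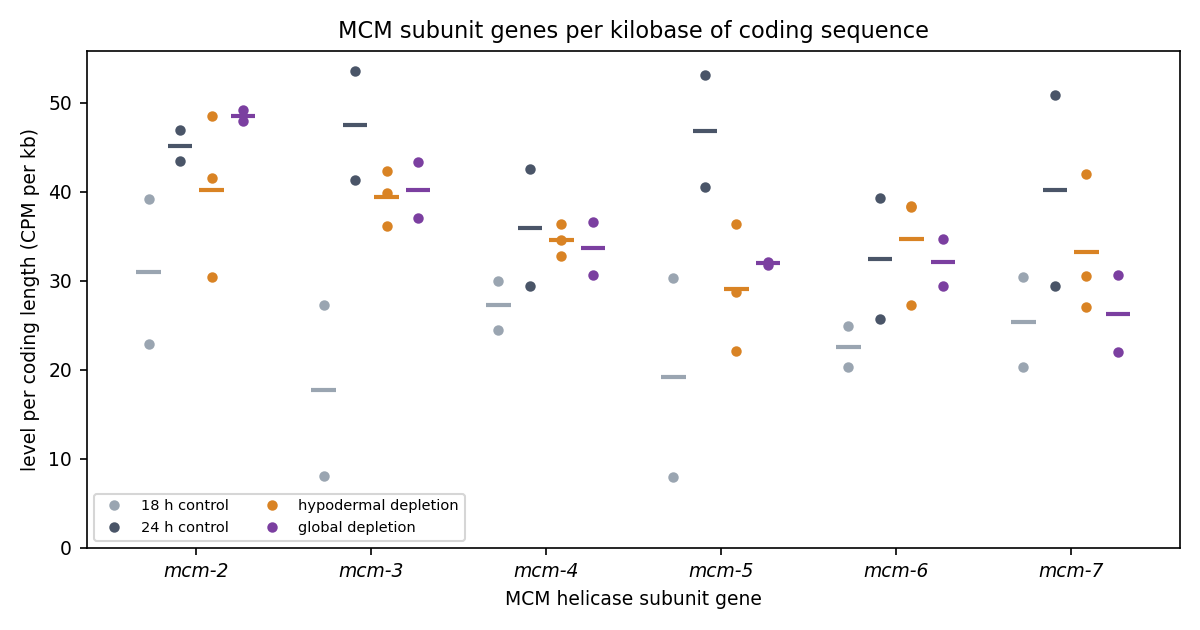
Level per kilobase of coding sequence (y axis, CPM per kb, from 0) of the 6 MCM subunit genes (x axis) in each library. Points are libraries, bars are group means and colours are the 4 groups. In the 24 h controls the means run from 32.5 for mcm-6 to 47.5 for mcm-3. The gene mcm-5, which was not called in any comparison, has all 5 depleted libraries below both 24 h controls.

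The loaders of the helicase stood lower per length. The genes orc-1 to orc-5 encode 5 subunits of the origin recognition complex, the platform on which MCM is loaded. In the 24 h controls they lay between 5.67 and 15.4 CPM per kb, below each MCM gene. At this depth they were listed unevenly, and orc-2, orc-4 and orc-5 were listed in neither 18 h control. The mean level of orc-2 was 15.01 ± 1.28 CPM in the 24 h controls (SD, n = 2), 11.5 ± 4.04 CPM in global depletion (n = 2) and 15.8 ± 4.37 CPM in hypodermal depletion (n = 3). The gene orc-5 was not tested, and its 24 h controls stood at 28.6 and 8.06 CPM.

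The genes cdc-6 and cdt-1 encode the cofactors that load MCM onto ORC-bound origins, and neither was called in any comparison. The gene cdc-6 was unlisted and at 30.2 CPM at 18 h, at 15.9 and 18.1 CPM in the 24 h controls, at 21.1 and 33.6 CPM in global depletion and at 20.2, 21.4 and 23.3 CPM in hypodermal depletion. All 5 depleted libraries lay above both 24 h controls, with log2 estimates of 0.66 and 0.34 that were not called. The gene cdt-1 stood at 22.3 and 48.3 CPM in the 24 h controls, at 30.1 and 41.3 CPM in global depletion and at 26.5, 34.8 and 20.7 CPM in hypodermal depletion, and the groups overlapped.

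Origin firing and DNA synthesis held 8 genes, of which 4 were tested. Their summed level came to 113 and 157 CPM at 18 h, to 271 and 258 CPM in the 24 h controls, to 254 and 255 CPM in global depletion, and to 216, 236 and 209 CPM in hypodermal depletion. The ratio of 24 h to 18 h was 1.95, or 1.48 with 2 counts for each unlisted gene. The global sum was 0.963 of the 24 h control sum, and 1.03 with total counts as the scaling, so its direction depends on the scaling. The hypodermal sum was 0.833 of it. None of the 4 tested genes was called in any comparison by edgeR, where 3.07% to 14.6% of all genes tested were called, depending on the comparison. Between the control times 2 had an unadjusted p below 0.05 in edgeR, and DESeq2 called none of these genes in that comparison. The share of all genes at the unadjusted threshold is not given here, so this count is only a description.

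The gene rnr-1 (chromosome III, 9225374 to 9228786) encodes the large subunit of ribonucleotide reductase, which makes the deoxyribonucleotides for DNA synthesis. It stood at 83.8 and 60.5 CPM at 18 h, at 127 and 131 CPM in the 24 h controls, at 126 and 147 CPM in global depletion and at 115, 108 and 121 CPM in hypodermal depletion. Every library at 24 h lay above both at 18 h. The log2 fold change was 0.82 (SE 0.37, adjusted p = 0.243) between the control times. It was 0.08 in global depletion (95% interval -0.49 to 0.64) and -0.18 in hypodermal depletion (-0.70 to 0.35), each against the 24 h controls. Its partner rnr-2, the small subunit, stood at 54.1 and 46.3 CPM in the 24 h controls, at 67.1 and 37.0 CPM in global depletion and at 31.3, 56.3 and 27.2 CPM in hypodermal depletion, with overlapping groups.

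The gene pcn-1 (chromosome IV, 4047937 to 4049448) encodes PCNA, the sliding clamp that holds DNA polymerase on its template. It was unlisted and at 36.3 CPM at 18 h, and at 63.6 and 40.3 CPM in the 24 h controls. It stood at 39.2 and 52.5 CPM in global depletion and at 40.4, 35.5 and 36.3 CPM in hypodermal depletion. Of its 3 hypodermal libraries, 2 lay below both 24 h controls and 1 between them. The log2 fold change was 1.39 (SE 0.67, adjusted p = 0.277) between the control times, -0.15 in global and -0.43 in hypodermal depletion. Per kilobase of coding sequence, pcn-1 was the highest of the 39 genes with a coding length in the 24 h controls, at 65.9 CPM per kb, ahead of rnr-1 at 54.6.

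The factors that fire origins were barely seen. The gene cdc-7 encodes the kinase that activates loaded MCM, and psf-1, psf-2 and psf-3 encode GINS subunits, which join MCM in the working helicase. These 4 genes were listed in 0 of the 18 h controls, and psf-2 and psf-3 in 1 library each of all 9. Their highest value in any library was the 9.55 CPM of psf-3 in the first 24 h control, which is 3 counts there. The gene div-1, which encodes the B subunit of DNA polymerase alpha-primase, stood at 15.9 and 34.2 CPM in the 24 h controls, at 15.8 and 12.05 CPM in global depletion and at 18.8, 36.2 and 15.5 CPM in hypodermal depletion. Both global libraries lay below both 24 h controls, at a log2 estimate of -0.90 that was not called.

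Cyclins and their kinases held 8 genes, and its ratio of 24 h to 18 h was the lowest of the 5 role groups. Its summed level came to 79 and 194 CPM at 18 h, to 213 and 171 CPM in the 24 h controls, to 119 and 177 CPM in global depletion, and to 131, 156 and 137 CPM in hypodermal depletion. The second 18 h control lay between the 24 h controls. That ratio was 1.41, and 1.11 with 2 counts for each unlisted gene. The hypodermal sum was 0.736 of the 24 h control sum, with no overlap between those groups, and the global sum was 0.771 of it, with overlap.

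The gene cyb-3 (chromosome V, 15395696 to 15397348) encodes a B-type cyclin of the B3 class, which drives mitosis with CDK-1. It stood at 19.7 and 48.4 CPM at 18 h, at 79.6 and 46.3 CPM in the 24 h controls, at 38.4 and 45.6 CPM in global depletion and at 24.5, 24.1 and 24.6 CPM in hypodermal depletion. The 3 hypodermal libraries lay below both 24 h controls and both global libraries, and within the range of the 18 h controls. Hypodermal depletion against the 24 h controls gave a log2 fold change of -1.32 (SE 0.41, adjusted p = 0.0424). That call was lost in 8 of 18 alternative settings, and without the first 24 h control, the higher of the pair, the adjusted p was 0.413. It was 0.0621 without the second global library and 0.080 to 0.104 without any 1 hypodermal library. In global depletion the log2 estimate was -0.54 (SE 0.43, adjusted p = 0.508). Hypodermal against global depletion gave -0.78 (SE 0.37, adjusted p = 0.311), so the 2 depletions were not shown to differ in cyb-3.

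The gene cdk-1 (chromosome III, 9747432 to 9748852) encodes the kinase of mitotic entry. It stood at 29.6 and 36.3 CPM at 18 h, at 54.1 and 44.3 CPM in the 24 h controls, at 32.4 and 46.5 CPM in global depletion and at 38.0, 43.5 and 25.9 CPM in hypodermal depletion. The 24 h controls lay above the 18 h controls, and all hypodermal libraries lay below them, but no comparison was called. Its log2 estimates were 0.57 between the control times, -0.31 in global and -0.41 in hypodermal depletion.

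The other B-type cyclin, cyb-1, was read from few counts. It was at 14.8 CPM and unlisted in the 18 h controls, at 22.3 and 8.06 CPM in the 24 h controls, at 5.28 and 21.5 CPM in global depletion and at 12.03, 17.4 and 18.1 CPM in hypodermal depletion. The groups overlapped, and the 95% interval of the global estimate ran from -1.56 to 1.37 on the log2 scale. Unlike cyb-3, its hypodermal libraries all lay between the 2 controls at 24 h.

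The G1 cyclins and kinases gave a mixed picture. The gene cyd-1, which encodes the D-type cyclin that starts the larval cell cycles, stood at 14.8 and 78.6 CPM at 18 h and at 31.8 and 32.2 CPM in the 24 h controls. It stood at 18.8 and 15.5 CPM in global depletion and at 18.8, 23.4 and 15.5 CPM in hypodermal depletion. All 5 depleted libraries lay below both 24 h controls, while the spread of the 18 h controls covered them all; no comparison was called. The S-phase cyclin genes cye-1 and cya-1 had mean levels in the 24 h controls of 15.9 ± 8.91 and 14 ± 2.71 CPM (SD, n = 2). Their kinase partners cdk-4, the partner of cyclin D, and cdk-2, the partner of cyclin E, were unlisted in both 18 h controls and reached at most 7.75 and 18.1 CPM in any library. Neither of these kinase genes was tested.

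Mitotic kinases, kinetochore and centromere held 10 genes, and the 3 genes called between the control times were all in this group. The summed level came to 217 and 145 CPM at 18 h, to 496 and 491 CPM in the 24 h controls, to 425 and 481 CPM in global depletion, and to 439, 482 and 478 CPM in hypodermal depletion. The 24 h controls held 2.73 times the 18 h level, and 2.1 times with 2 counts for each unlisted gene. Against the 24 h controls the global sum was 0.917 and the hypodermal sum 0.944, and 0 of the 9 tested genes were called in either. Over all genes tested, 8.45% and 5.05% were called in these comparisons.

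The gene hcp-2 (chromosome V, 9645746 to 9650211) encodes a CENP-F-like protein of the outer kinetochore. It was unlisted in both 18 h controls, which places it under 14.8 and 18.1 CPM there. It stood at 41.4 and 52.4 CPM in the 24 h controls, at 64.1 and 68.8 CPM in global depletion and at 55.3, 61.0 and 72.6 CPM in hypodermal depletion. Every depleted library lay above both 24 h controls. Set against 3 counts in each 18 h library, the level came to at least 2.85-fold higher in the 24 h controls, at least 4.04-fold higher in global depletion and at least 3.82-fold higher in hypodermal depletion. The adjusted p-values from edgeR were 0.0224, 0.000438 and 0.000605. Both 18 h libraries entered these fits at the value set for unlisted counts, and hcp-2 passed the filter through libraries at 24 h. These p-values are therefore only a description and do not measure a spread at 18 h. The calls of both depletions against 18 h held in all 18 alternative settings, which also used an entered value at 18 h. That of the 24 h controls was lost in 7 of 18. Without either 18 h control its adjusted p was 0.134 or 0.105, and without the second 24 h control 0.119. Against the 24 h controls the log2 estimates were 0.48 in global (adjusted p = 0.513) and 0.39 in hypodermal depletion (adjusted p = 0.638).

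Its paralogue hcp-1, which acts with it at the kinetochore, was already listed at 18 h. It stood at 104 and 42.3 CPM at 18 h, at 92.3 and 121 CPM in the 24 h controls, at 103 and 120 CPM in global depletion and at 109, 100 and 75.2 CPM in hypodermal depletion. The 18 h libraries spanned most of the range, and hcp-1 was not called in any comparison. The treatment of reads shared between the paralogues is not given in the sources used here.

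The gene nasp-1 (chromosome II, 11106616 to 11108070) encodes a histone chaperone of the NASP family. It was also unlisted in both 18 h controls, and it passed the filter through libraries at 24 h. It stood at 38.2 and 48.3 CPM in the 24 h controls, at 30.1 and 36.1 CPM in global depletion and at 36.1, 39.5 and 23.3 CPM in hypodermal depletion. All libraries at 24 h lay above the limit of the 18 h libraries. The level came to at least 2.63-fold higher in the 24 h controls, at least 2.01-fold in global and at least 2.00-fold in hypodermal depletion. The adjusted p-values were 0.0479, 0.0376 and 0.0326, and these calls were lost in 13 of 16, 7 of 17 and 6 of 17 alternative settings that gave a value. As for hcp-2, these p-values rest on the value entered for both 18 h libraries and are only a description. Without the first 18 h control they were 0.202, 0.204 and 0.204, and without the second 0.151, 0.132 and 0.125. The call between the control times was also lost without any 1 other library but the third hypodermal one (0.0509 to 0.175), that of global depletion without either of its own libraries (0.0625 and 0.111), and that of hypodermal depletion without its first or second (0.0644 and 0.0812).

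The gene plk-1 (chromosome III, 8101348 to 8104076) encodes Polo-like kinase, which acts in centrosome maturation and spindle assembly. It stood at 14.8 and 30.2 CPM at 18 h, at 111 and 68.5 CPM in the 24 h controls, at 60.3 and 63.7 CPM in global depletion and at 41.4, 75.0 and 79.0 CPM in hypodermal depletion. Every library at 24 h lay above both at 18 h. Between the control times the log2 fold change was 2.00 (SE 0.58, adjusted p = 0.0423), and that call was lost in 9 of 18 alternative settings. The adjusted p was 0.248 and 0.0717 without the first and second 18 h control, 0.172 without the first 24 h control and 0.0591 without the third hypodermal library. Against the 24 h controls it was -0.50 (SE 0.37) in global and -0.46 (SE 0.34) in hypodermal depletion, neither called. Both global libraries lay below both 24 h controls, and the hypodermal libraries overlapped them.

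The gene bub-1 (chromosome I, 7251941 to 7255223) encodes a kinase of the spindle checkpoint. It stood at 44.4 and 30.2 CPM at 18 h, at 76.4 and 107 CPM in the 24 h controls, at 57.3 and 84.3 CPM in global depletion and at 86.6, 85.1 and 114 CPM in hypodermal depletion. Again every library at 24 h lay above both at 18 h. It was called in hypodermal depletion against 18 h, at a log2 fold change of 1.31 (SE 0.43, adjusted p = 0.0356), and that call was lost in 9 of 18 alternative settings. The adjusted p was 0.0983 and 0.21 without the first and second 18 h control, and 0.0534 and 0.0809 without the second and the third hypodermal library. Against the 24 h controls the groups overlapped.

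The scaffold gene knl-1, whose product ties the kinetochore to checkpoint proteins, showed little spread within each group. It averaged 22.0 ± 3.16 CPM at 18 h and at 39.8 ± 2.2 CPM in the 24 h controls (SD, n = 2 each). It averaged 57.4 ± 0.874 CPM in global depletion (n = 2) and 56.3 ± 2.78 CPM in hypodermal depletion (n = 3). All 5 depleted libraries lay above both 24 h controls, but the log2 estimates of 0.53 and 0.51 had adjusted p-values of 0.48 and 0.514. Of all genes tested, 3.44% and 1.66% were called higher in these comparisons.

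The microtubule-binding gene ndc-80 was unlisted in both 18 h controls and stood at 38.2 and 26.2 CPM in the 24 h controls. It stood at 21.9 and 26.7 CPM in global depletion and at 19.2, 26.1 and 11.7 CPM in hypodermal depletion. The hypodermal libraries all lay below both 24 h controls, and the second global library lay between them. The Aurora kinase genes air-1 and air-2 and hcp-3, which encodes the centromeric histone CENP-A, were low, and the Aurora genes had levels of at most 34.5 and 18.1 CPM in any library. The gene hcp-3 was unlisted at 18 h, averaged 10.4 ± 3.30 CPM in the 24 h controls (SD, n = 2) and was not tested.

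**Figure D4:**
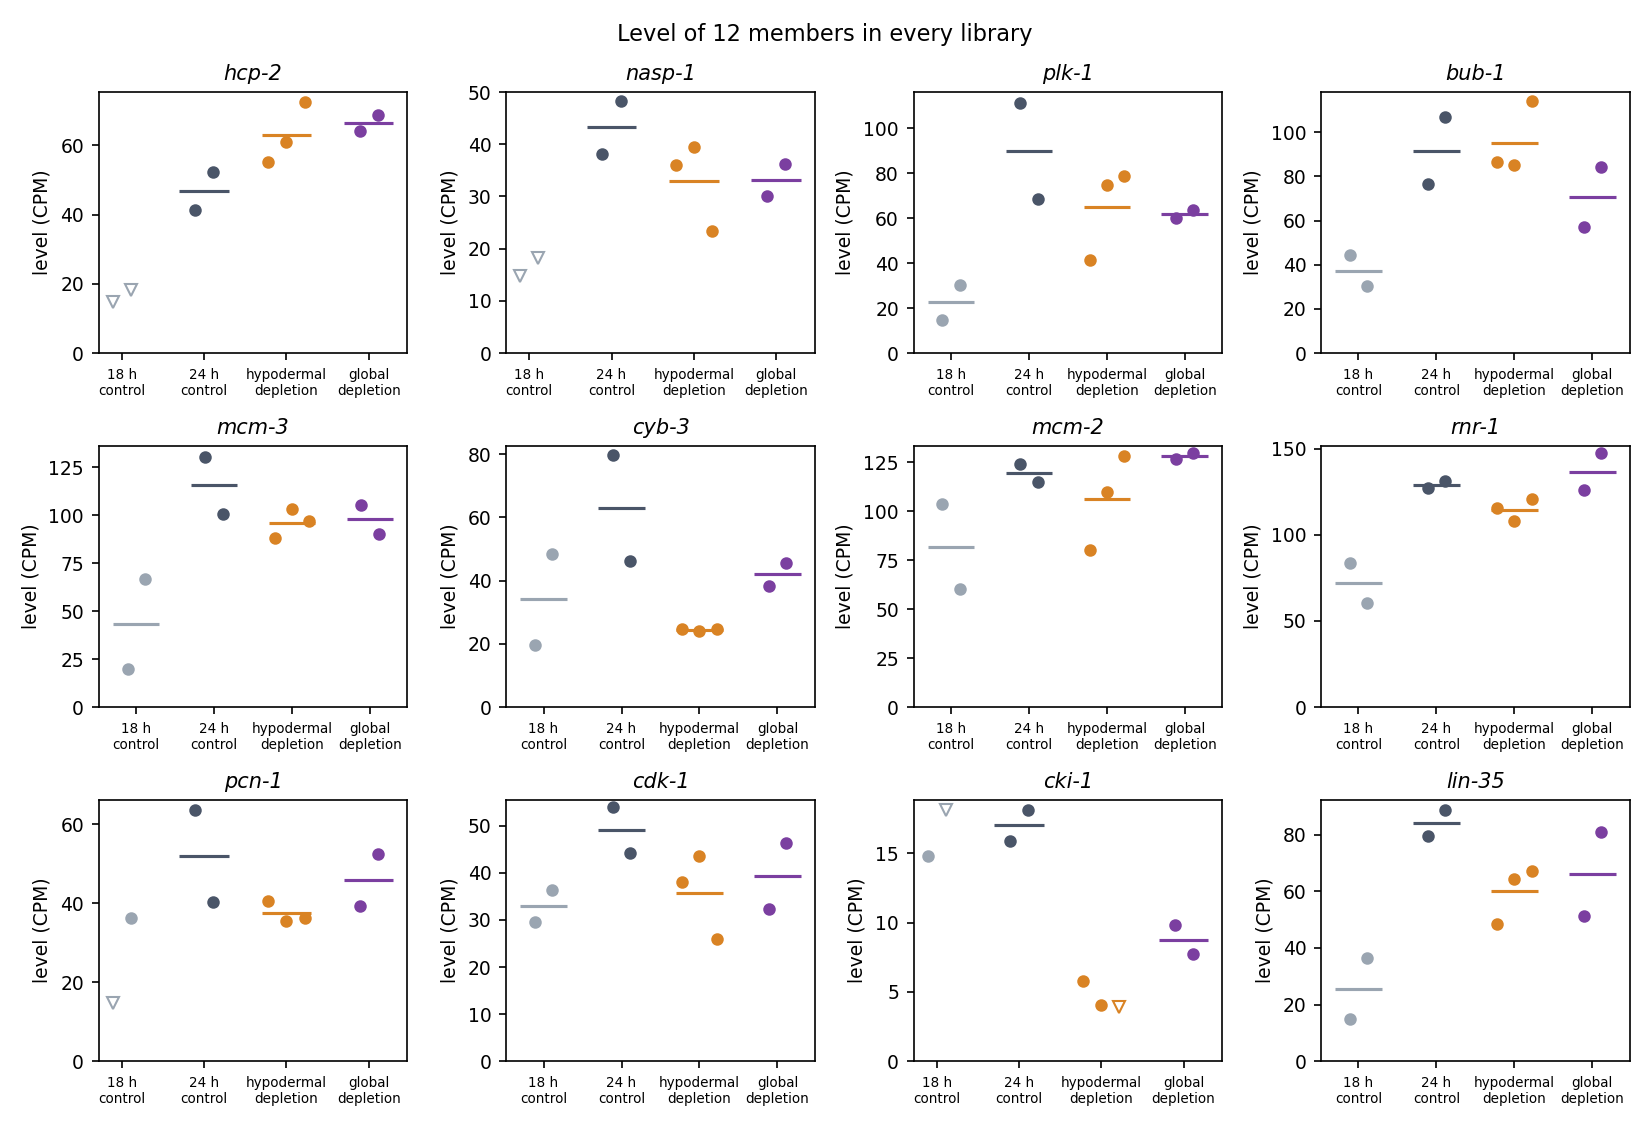
Level in CPM (y axis, from 0, scaled per gene) of 12 of the 41 genes in each library (x axis, 4 groups). Circles are libraries, lines are group means where every library is listed, and open triangles mark unlisted libraries at the 3 counts that are their upper limit; hcp-2 and nasp-1 were unlisted in both 18 h controls, and the 3 hypodermal libraries of cyb-3 lie between 24.1 and 24.6 CPM.

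The brakes were the cell cycle inhibitor cki-1 and the Rb-family gene lin-35. The gene cki-1 encodes a CDK inhibitor of the Cip/Kip family that holds worm blast cells in G1. It was at 14.8 CPM and unlisted in the 18 h controls, at 15.9 and 18.1 CPM in the 24 h controls and at 9.80 and 7.75 CPM in global depletion. In hypodermal depletion it was at 5.77 and 4.02 CPM and unlisted in the third library, where 3 counts stand for 3.89 CPM. All 5 depleted libraries lay below both 24 h controls, and the hypodermal ones below the global ones. The log2 estimates against the 24 h controls were -0.95 (SE 0.78, adjusted p = 0.529) in global and -2.03 (SE 0.76, adjusted p = 0.115) in hypodermal depletion, so neither passed. Of all genes tested, 5.01% and 3.39% were called lower in these comparisons.

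The gene lin-35 (chromosome I, 5807709 to 5815637) encodes the only Rb-family protein of the worm, which represses cell cycle genes with E2F. It stood at 14.8 and 36.3 CPM at 18 h, at 79.6 and 88.6 CPM in the 24 h controls, at 51.3 and 80.9 CPM in global depletion and at 48.6, 64.3 and 67.4 CPM in hypodermal depletion. Every library at 24 h lay above both at 18 h, and the hypodermal libraries all lay below both 24 h controls. The log2 fold change was 1.78 (SE 0.55) between the control times, at an adjusted p of 0.0612, and -0.36 and -0.51 in global and hypodermal depletion, neither called. The gene overlaps coding genes on the opposite strand.

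Against the 18 h controls, which are younger by 6 h, the depleted groups can be set beside the 24 h controls. Global depletion had 3 of the 33 genes higher (hcp-2, nasp-1 and mcm-3) and 0 lower, where 14.6% of all genes tested were called, 5.99% higher and 8.61% lower. Hypodermal depletion had 4 higher (hcp-2, nasp-1, bub-1 and mcm-3) and 0 lower, where 13.0% were called, 5.46% higher and 7.58% lower. In both, the calls of hcp-2 and nasp-1 rest on the value entered for the 18 h libraries, where they were unlisted. The median log2 fold change of the 33 was 0.67 in global and 0.52 in hypodermal depletion, and over all 41 genes without the filter 1.08 and 0.91. In the same order the medians of all genes were -0.02 and 0.03 with the filter, and 0.10 and 0.11 without it. The summed level came to 1.79 and 1.73 times that of the 18 h controls, or 1.45 and 1.39 times with 2 counts for each unlisted gene. All these comparisons and that of the control times use the same 18 h libraries, so they are not independent of each other.

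A wider list of 135 further replication and cell cycle genes was measured beside the 41, of which 125 were listed and 103 tested. It covers the replication fork and nucleotide supply, the kinetochore and checkpoint, the spindle and cytokinesis, cohesin and condensin, the APC/C and CDK regulators, and E2F with DREAM. The summed level came to 3742 and 3902 CPM at 18 h, to 5693 and 6119 CPM in the 24 h controls, to 6250 and 6326 CPM in global depletion, and to 5985, 5892 and 5314 CPM in hypodermal depletion. The global sum was thus 1.07 times that of the 24 h controls, where the sum of the 41 was 0.885. Between the control times 5 of the 103 rose and 0 fell, where 0.934% of all genes tested were called higher and 2.13% lower. In each depletion against the 24 h controls 0 of 103 were called by edgeR, where 8.45% of all genes tested were called in global and 5.05% in hypodermal depletion. Of the 103, 12 had an unadjusted p below 0.05 in global and 8 in hypodermal depletion. The share of all genes at that unadjusted threshold is not given here, so these 2 counts are only a description.

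The 5 that rose with time were smc-3, ani-1, spd-5, smc-4 and top-2. The gene smc-3, which encodes a core subunit of cohesin, stood at 14.8 and 36.3 CPM at 18 h and at 95.5 and 125 CPM in the 24 h controls. It stood at 145 and 132 CPM in global depletion and at 126, 133 and 102 CPM in hypodermal depletion. Its log2 fold change between the control times was 2.18 (SE 0.49, adjusted p = 0.00562), and it was 2.49 and 2.30 in global and hypodermal depletion against 18 h. The log2 fold changes between the control times were 1.76 for ani-1, the anillin of cytokinesis, 1.47 for spd-5, a centrosome scaffold, 1.37 for smc-4, a condensin subunit, and 1.15 for top-2, topoisomerase II. Leaving out 1 control library ended each of these calls for at least 1 choice: without the first 18 h control the adjusted p was 0.114 for smc-3, 0.0691 for ani-1, 0.192 for spd-5 and 0.198 for top-2, and without the second it was 0.284 for smc-4 and 0.063 for spd-5. Without the second 24 h control it was 0.0782 for smc-3, 0.168 for smc-4 and 0.255 for top-2, and without the first 0.191 for spd-5.

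Against 18 h, 15 of the 103 were higher and 1 lower in global depletion, and 6 were higher and 1 lower in hypodermal depletion. Over all genes tested, 5.99% were called higher and 8.61% lower in global depletion, and 5.46% and 7.58% in hypodermal depletion. In global depletion the genes called higher included cyh-1, at least 2.79-fold higher, and lig-1, which encodes DNA ligase I, at least 2.60-fold higher, both unlisted at 18 h. Their calls likewise rest on the value entered there. The APC/C subunit gene emb-30 rose by 1.76 and the cohesin gene coh-1 by 1.59 on the log2 scale in global depletion. In hypodermal depletion emb-30 rose by 1.74 and top-2 by 1.47 on the log2 scale. Without the first 18 h control the adjusted p in global depletion was 0.0992 for cyh-1, 0.135 for lig-1, 0.144 for emb-30, 0.331 for coh-1 and 0.0666 for ani-1, and in hypodermal depletion 0.164 for emb-30. Without the second 18 h control it was 0.0572 for cyh-1 and 0.0791 for lig-1. Without the second global library it was 0.0556 for lig-1 and 0.168 for coh-1. The 1 gene lower in each was the phosphatase gene cdc-14, which was not among those the naming rule selected and was named after its values were seen.

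Markers of the cells that divide in larvae and of the germ line were read from separate lists, and their part in the results was not tested. The 14 germline genes, all listed in some library, summed to 197 and 121 CPM at 18 h, to 124 and 127 CPM in the 24 h controls, to 245 and 200 CPM in global depletion and to 253, 202 and 181 CPM in hypodermal depletion. These sums count unlisted genes as 0, and the controls are shallower. The mean sums of global and hypodermal depletion were 1.77 and 1.69 times that of the 24 h controls, or 1.34 and 1.27 times with 2 counts for each unlisted gene. Against 18 h they were 1.40 and 1.33 times, or 0.839 and 0.799 times with 2 counts, so that direction depends on the unlisted counts. The meiotic genes him-3, htp-3 and syp-1 were unlisted in every control. Over all genes tested, 5.05% were called in hypodermal depletion against the 24 h controls, 1.66% higher, and 13.0% against 18 h, 5.46% higher. Of the 7 tested germline genes 1 was called in hypodermal depletion against the 24 h controls, mex-3. Its log2 fold change was 1.58 (SE 0.48, adjusted p = 0.0411), and the call was lost in 10 of 17 alternative settings. The change of mex-3 rested on few libraries. It was unlisted in the first 24 h control, without which the adjusted p was 0.424, and without the first global or the first or second hypodermal library it was 0.06, 0.122 and 0.186. The gene encodes an RNA-binding protein of the germ line and early embryo, and it was also higher against 18 h, by 1.97 on the log2 scale (adjusted p = 0.0336), where the call was lost without the second 18 h control (0.25) or the first or second hypodermal library (0.0758 and 0.103).

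The 10 genes of the oocyte and early embryo summed to at most 30 CPM in any library and to 0 listed counts in the first 24 h control. The genes egg-1 and nos-2 were listed in no used library, and oma-1, oma-2 and pos-1 were unlisted in all controls. RNAs of oocytes and early embryos were thus at or near the limit of detection in the controls, although the titles say embryo. In the deeper depleted libraries the sums were low but above it. They were 24.1 and 30.1 CPM in global depletion, where 3 counts stood for 2.26 and 2.58 CPM, and 11.7 to 27.5 CPM in hypodermal depletion.

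The 9 seam genes summed to 237 and 248 CPM at 18 h, to 165 and 161 CPM in the 24 h controls, to 149 and 135 CPM in global depletion and to 104, 81 and 133 CPM in hypodermal depletion. Seam cells are the stem-like blast cells of the epidermis. The hedgehog-related gene grd-10 made up most of that sum in the controls but not in the depleted libraries, and the seam regulators rnt-1, bro-1 and ceh-16 were unlisted in every control. The lower sums of the depleted groups than of the 24 h controls rested on grd-10. The listed remainder of the seam genes was not lower in global depletion, and in hypodermal depletion it overlapped the 24 h controls. The gene grd-10 stood at 173 and 169 CPM at 18 h, at 102 and 94.7 CPM in the 24 h controls, at 67.1 and 65.4 CPM in global depletion and at 25.5, 22.1 and 28.5 CPM in hypodermal depletion. It fell by 1.96 on the log2 scale (SE 0.32, adjusted p = 2.33e-05) in hypodermal depletion against the 24 h controls, and by 2.76 against 18 h, and both calls held in all 18 alternative settings.

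The lists for the somatic gonad (5 genes), the mesoblast (5) and the vulval and ventral cord precursors (5) rested on few detected genes. Their sums ran from 57 to 175 CPM, from 30 to 133 CPM and from 42 to 92 CPM over the 9 libraries. The somatic gonad sum was highest in hypodermal depletion, at 127 to 175 CPM, and nearly all of it was tra-1, a gene of sex determination. The markers lag-2, hlh-8, hnd-1 and ehn-3 were unlisted in every control.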

How the data were processed

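RNA of 9 whole-worm libraries was analysed. Per the file headers, the authors deposited raw counts over the coding sequence of 1 transcript per gene, and no count below 3 is listed. The table names 10 libraries, and 1, which matched no sample, was not used. Build WBcel235 and DESeq2 are named in the submitters' processing notes; for the aligner, the counting tool, strand and shared reads: not given in the sources used here. Per the labels' protocols, RNA was extracted with Trizol, ribosomal RNA removed with RNase H and libraries made with a SMARTER kit.

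The comparisons used edgeR 4.0.16 (R 4.3.3) with TMM scaling, filterByExpr (minimum count 10, minimum total 15, unlisted counts as 0), robust quasi-likelihood fitting over the 9 libraries, 1 term per group, and Benjamini-Hochberg adjustment over the 8026 genes kept, with a threshold of 0.05. Unlisted counts entered the fit as 1. The common biological coefficient of variation was 0.203. Standard errors are those implied by the F statistic, and 95% intervals use the moderated t distribution. CPM carry the TMM factors, and sums count unlisted genes as 0. Lower bounds of folds set 3 counts in each unlisted 18 h library. Poisson intervals cover counting error only. Floors and lower bounds of folds hold for the observed counts and make no allowance for counting error. The share of all genes whose groups do not overlap is not given here, so statements that groups lay apart only describe single genes or sums. Over genes, a chi-square per degree of freedom of 2.32 to 7.81 between replicates left no pair of libraries that agreed within sampling noise.

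The 41 genes and the other lists were chosen with earlier results of these data known. Values in every library are given for genes past the threshold in any comparison and for pcn-1, rnr-1, mcm-2, cdk-1, cyb-1, cki-1 and lin-35, with other members added where they fill a role; from the other lists, up to 6 called genes per comparison with the largest change are named, except 1 that is not reported here. Alternatives were other values for unlisted counts, no filter, other scaling, DESeq2 1.42.0, only the groups compared, a replicate block, libraries thinned to the total of the shallowest (after the deposited limit of 3 counts, so the number of genes listed is not matched) and leaving out each library. Coding lengths and overlaps were read from the WBcel235 annotation.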

Additional observations from a re-analysis of the deposited data

Results flagged for a closer look

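Hypodermal and global depletion, set against each other, differed in grd-10 and tra-1, both from the marker lists and neither a replication gene. The seam gene grd-10 was lower in hypodermal depletion, at a log2 fold change of -1.40 (SE 0.29, adjusted p = 0.00109 in edgeR's quasi-likelihood test), and kept that call in all 18 alternative settings. Its 3 hypodermal libraries stood between 22.1 and 28.5 CPM and its global libraries at 67.1 and 65.4 CPM. The sex determination gene tra-1 was higher in hypodermal depletion, at a log2 fold change of 1.03 (SE 0.26, adjusted p = 0.00993), and lost the call in 4 of 18 settings. Without the first or second global library the adjusted p was 0.301 or 0.093, and without the second hypodermal library 0.117. It stood at 143, 165 and 123 CPM in hypodermal and at 64.8 and 76.6 CPM in global depletion, with 57.3 and 111 CPM in the 24 h controls.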

How the results depend on the processing

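Among the calls named, no estimate changed sign under any alternative that gave a value (16 to 18 for each call). This leaves out the calls of cdc-14, which were not run under the alternatives. Of the estimates of tested genes that were not called, 10 of 30 between the control times changed sign in at least 1 alternative, 13 of 33 in global and 14 of 32 in hypodermal depletion against the 24 h controls, 18 of 33 between the depletions, and 13 of 30 and 13 of 29 in global and hypodermal depletion against 18 h. The number of the 41 genes called is given in the order 24 h against 18 h controls, hypodermal depletion against the 24 h controls, global and then hypodermal depletion against 18 h, where the counts were 3, 1, 3 and 4. With unlisted counts as 0 they were 6, 0, 8 and 8, and as 2 they were 3, 1, 6 and 5. Without the filter they were 7, 0, 11 and 8, and with DESeq2 size factors in edgeR 1, 1, 2 and 2. DESeq2 gave 0, 1, 1 and 1, a fit of only the groups compared 0, 1, 1 and 2, thinned libraries 1, 1, 2 and 2, and total counts as the scaling 2, 1, 3 and 3. Leaving out 1 library gave 1 to 2, 0 to 1, 1 to 3 and 1 to 5. In hypodermal depletion against the 24 h controls the 1 call, cyb-3, was lost without the first 24 h control, the second global library or any one hypodermal library. Leaving out a control leaves 1 library in its group. Between the control times the calls of hcp-2, plk-1 and nasp-1 were all lost without either 18 h control. Any gene still called there was another of the 41. The calls of plk-1 and nasp-1 were lost without the first 24 h control, and those of hcp-2 and nasp-1 without the second. Against 18 h, global depletion had 1 without its second library, and hypodermal depletion had 1 without the first 18 h control or its own second library and 2 without the second 18 h control or the third hypodermal library. Global depletion against the 24 h controls, and the depletions against each other, stayed at 0 in every setting. The cause of these shifts was not tested. With the replicate number as a block the counts were 1, 0, 2 and 2; the groups share only 2 numbers, and correlations of same-numbered deviations lay between -0.04 and 0.11, so the numbers do not show a pairing.

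Median log2 fold changes of those of the 41 genes that were fitted ran from 0.62 to 1.07 between the control times. They ran from -0.35 to -0.05 in global and from -0.33 to -0.14 in hypodermal depletion against the 24 h controls. The values of 1.07 and -0.14 come from the setting without the filter, which takes all 41 genes. Entering 0 for unlisted counts moved the median of all genes to 0.24 between the control times, and to 0.31 and 0.36 in global and hypodermal depletion against 18 h. Total counts as the scaling moved it to 0.11 in global depletion against the 24 h controls, and DESeq2 size factors to -0.11 in global depletion against 18 h. Depth is one limit: the 18 h controls have a median of 3 counts per gene of the 41.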
